A study of Oryza sativa with 12 samples.

Results

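The GRAS genes of rice were examined in root transcriptomes of WT and of the Os1400 mutant at normal and low phosphate. Members were all genes of the deposited expression table whose description carries the GRAS protein domain (PF03514), and they were joined to the count tables by gene identifier. The rule found 58 members among 41620 genes. A total of 41 members had a row in both count tables, 42 had a row in the +Pi table and 42 in the low-Pi table, and 15 had a row in neither. Those 15 were listed at 0 FPKM (fragments per unit of gene length and of library depth) in all 12 libraries. The tables give a name to 20 members and none to the other 38. Every member was also assigned to the GRAS family of transcription factors in the tables.

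GRAS proteins are plant transcription regulators that share a conserved C-terminal domain and mostly act in complexes with other transcription factors. NSP1 and NSP2 are required for nodulation signaling in legumes and for strigolactone (SL) biosynthesis in rice, and RAM1 is required for arbuscule development in legumes. SLR1 is the DELLA protein of rice, which represses gibberellin responses until the hormone triggers its degradation. SHORT-ROOT (SHR) and SCARECROW (SCR) were described in Arabidopsis roots, where SHR moves from the stele into the adjacent layer and acts with SCR to specify the endodermis.

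The libraries were made from total RNA of 3-wk-old roots of cv. Nipponbare, either WT or the line Os1400-12SIII, in which CRISPR/Cas9 disrupted the strigolactone biosynthetic gene Os01g0701400, a MAX1 homolog. Seedlings were kept for 2 wk in hydroponic solution that contained 0.4 mM phosphate in the +Pi treatment and 0.004 mM in the low-Pi treatment. The groups WT +Pi, Os1400 +Pi, WT low-Pi, and Os1400 low-Pi had 3 libraries each, and the mutant was represented by this line alone. The study describes its replicates as biological, while the labels do not say whether they came from separate cultures.

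Total counts ranged from 28271749 to 41078078 per library, and 3 counts corresponded to 0.0730 to 0.106 CPM (counts scaled to the total count, before TMM factors), which reflects counting error alone. The low-Pi WT libraries stood apart. Between 17711 and 22077 genes had a count in them, against 27191 to 30375 in the other 9 libraries, and the GRAS genes followed, with 29 to 36 members detected against 37 to 41. Of the genes with at least 30 counts in each of the other 9 libraries, 25.2% (5085 of 20158) were at 0 in 1 or more low-Pi WT libraries, as were 26.5% of such GRAS genes (9 of 34). In all 3 low-Pi WT libraries together, 658 of these genes and 2 of these members, Os02g0197300 and Os10g0369750, had no count. Every comparison with WT low-Pi rests on these libraries, whereas the comparison of the Pi supplies in Os1400 does not use them. The root markers RCc3, Lsi1, and Lsi2 were at 122 FPKM or more in every library, the root marker NRT2.1 was at 0 in 11 libraries, and HKT2;1 reached at most 5.26 FPKM. The 6 markers of green shoot tissue reached at most 7.81 FPKM each, and they summed to 2.76 to 10.5 FPKM in WT low-Pi and to 1.96 to 11.2 FPKM in the other groups.

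The authors' table places the members on 10 of the rice chromosomes, with 12 on chromosome 11 and 9 on chromosome 3. The build is not named in the sources used here. Most GRAS genes consisted of a single block without introns. In 38 of 58 members (65.5%) the gene length equaled the span, against 28.9% of 35820 protein-coding genes, and the median length was 1812 bases against 1425 bases. A total of 26 members lay in 11 clusters, in which neighbors were separated by at most 50000 bases. On chromosome 2, HAM1 (26841588 to 26844331) and HAM2 (26852082 to 26854948) were neighbors on the plus strand, each with an unnamed member on the minus strand inside its span. In all, 20 members overlapped another gene, always on the opposite strand, and 8 of these overlaps paired 2 members. NSP2 (chromosome 3, 8651497 to 8653224, plus strand) contained all 433 bases of Os03g0263350 on the minus strand. Of the 15 members at 0 FPKM in every library, 8 lay opposite another member and 9 opposite any gene. The strand setting of the counting is not given in the sources used here, so reads of such partners could not be told apart, and the values of the 20 members are uncertain to that extent.

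At +Pi, the most abundant GRAS transcripts in WT roots were those of SLR1 (43.1 ± 5.29 FPKM, SD, n = 3), of the unnamed gene Os12g0573200 (41.7 ± 5.998 FPKM), and of SCL1, a scarecrow-like gene (34.98 ± 1.08 FPKM). Os01g0948200 followed at 32.8 ± 1.78 FPKM and SHR1 at 25.1 ± 3.37 FPKM. The ranges of the libraries overlapped between neighbors among the first 4 genes, and the lowest value of Os01g0948200 was above the highest of SHR1. These 5 genes held 43.5% of the summed FPKM of all members in WT +Pi. In total, 12 members had a mean of 10 FPKM or more, 21 lay between 1 and 10 FPKM, 7 lay above 0 but under 1 FPKM, and 18 were at 0. NSP1 was the lowest named gene with any signal, in rank 37 at 0.403 ± 0.0995 FPKM, and NSP2 and RAM1 were among the members at 0. MOC1, which controls tiller bud formation in rice, was at 0.480 ± 0.138 FPKM. SLRL2, an SLR1-like gene, had no row in the count tables and was listed at 0 FPKM in all 12 libraries.

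**Figure D1:**
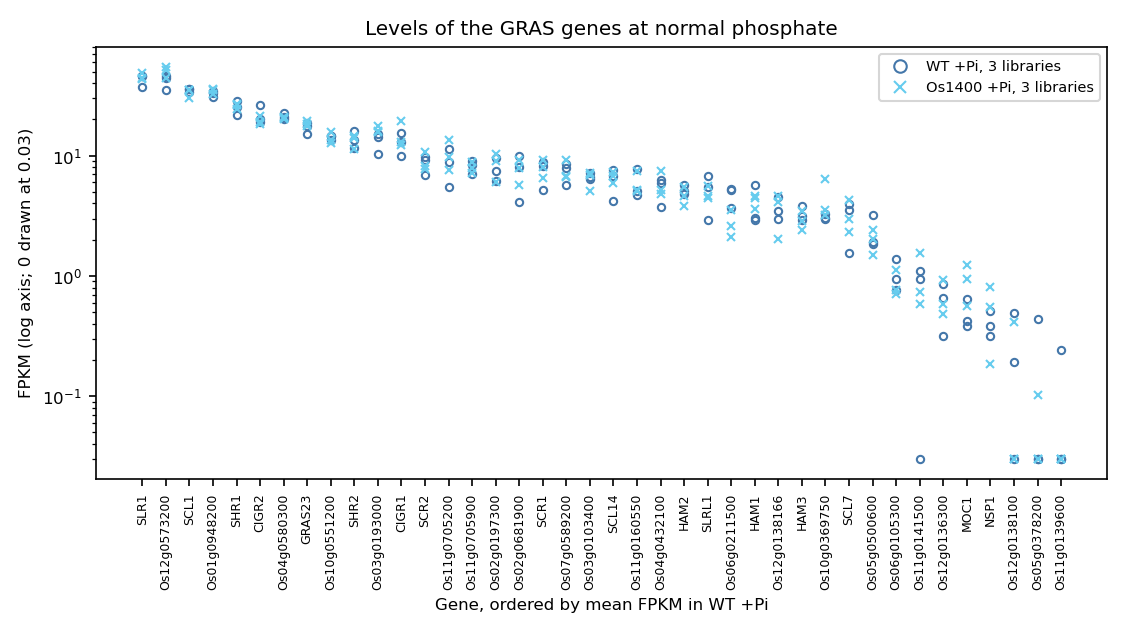
FPKM (log axis) in the 3 WT +Pi libraries (circles) and the 3 Os1400 +Pi libraries (crosses) of each GRAS gene with a mean above 0 in WT +Pi, ordered by that mean, with values of 0 drawn at 0.03. SLR1 leads at a mean of 43.1 FPKM and NSP1 stands near the end at 0.403 FPKM.

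To ask whether the Os1400 mutation changed GRAS gene expression at normal phosphate, the genotypes were compared at +Pi. None of the 38 members tested was called at a false discovery rate (FDR) of 0.05 or less in the quasi-likelihood test of edgeR (Benjamini-Hochberg adjustment), against 0.958% of all 27777 genes tested (0.540% higher and 0.418% lower). The count was also 0 at an unadjusted p of 0.05 or less by edgeR, where 1456 of the 27777 genes were higher and 1341 lower. With DESeq2 it was 0 as well, and the smallest edgeR FDR among the members was 0.508. The median log2 fold change of the members was 0.02, against 0.01 over all genes. The gene with this smallest p was Os06g0211500, at 4.72, 3.33, and 4.67 CPM in WT and 3.09, 2.27, and 1.85 CPM in Os1400 (with TMM factors over the 12 libraries, here and below for replicates 1, 2, and 3). Its log2 fold change was -0.80 (SE 0.38, edgeR FDR 0.508). The groups did not overlap in 1 member that was higher in Os1400, Os03g0193000, and in 1 that was lower, Os06g0211500. Over all genes, 9.03% were separated with higher and 7.89% with lower values in Os1400.

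The Pi supply was compared within each genotype, to ask which GRAS genes responded to phosphate limitation. In WT, 1 of 37 members tested rose at low-Pi and 5 fell by edgeR's quasi-likelihood test, while 8.46% of all genes tested rose and 15.2% fell (23.7% in either direction). In Os1400, 6 of 38 members rose and 7 fell, with 15.6% and 14.0% of all genes (29.6% in either direction). The median log2 fold change of the members was -0.21 in WT, against -0.28 over all genes, and -0.01 in Os1400, against -0.00277 over all genes. Both genotypes could be tested for 37 members, and 24 of these had the same sign in both. In WT the groups did not overlap in 4 members that were higher and 11 that were lower at low-Pi, with 15.6% and 33.1% of all genes, and in Os1400 in 10 and 10 members, with 23.6% and 22.8%. Among the 37 members tested in both, the 6 called in WT and the 12 called in Os1400 shared 3, SHR1, NSP1, and Os02g0197300, which is 50% of the calls in WT and 25% of those in Os1400, and all 3 moved in the same direction. Shared signs and shared calls were not counted over all genes, so neither number can be set against a background. The median SE of the members was 0.53 in WT and 0.22 in Os1400 on the log2 scale. The number of members called in WT was 1, 2, and 1 without WT +Pi replicates 1, 2, and 3 (7.11%, 13.7%, and 7.06% of all genes) and 11 without WT low-Pi replicate 3 (33.8% of all genes). In Os1400 it was 8 without Os1400 low-Pi replicate 1 (20.4% of all genes).

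**Figure D2:**
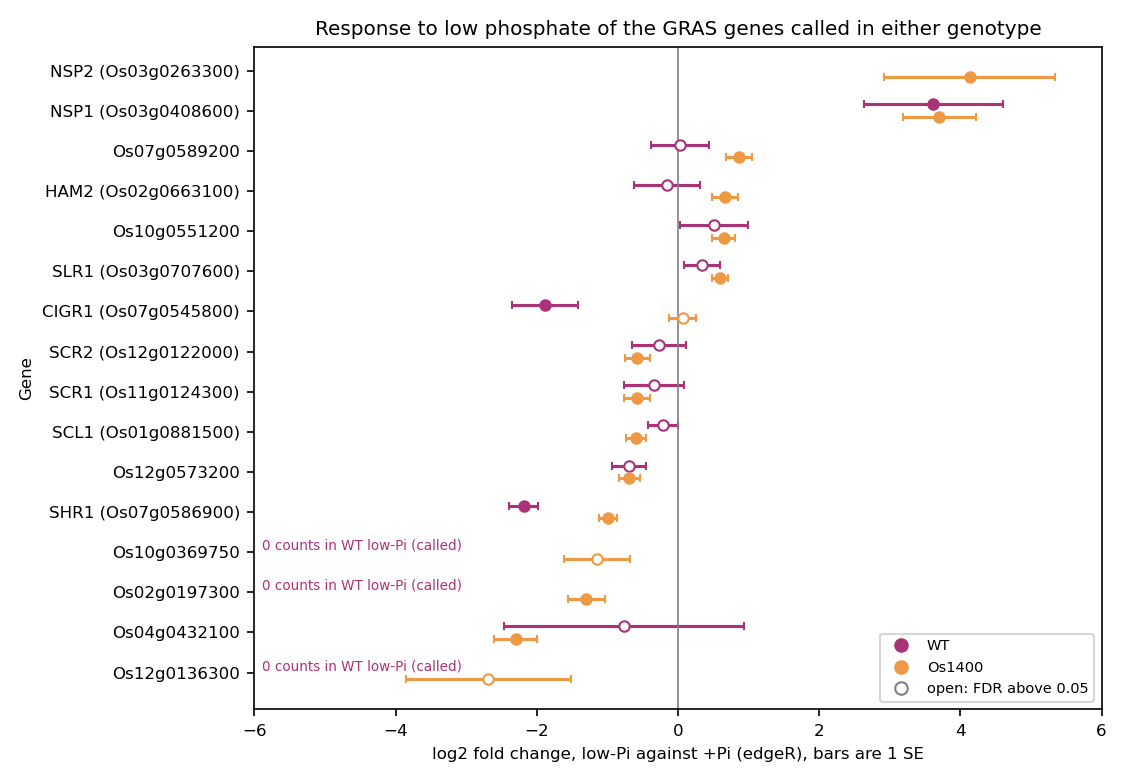
Log2 fold change of low-Pi against +Pi in WT and Os1400 (edgeR, bars are 1 SE) for the GRAS genes called in either genotype, with open symbols where the FDR was above 0.05. NSP1 lies at 3.61 in WT and 3.70 in Os1400, and SHR1 at -2.19 and -0.99. A gene without counts in WT low-Pi is marked in words, and NSP2 was left out in WT by the filter on low counts.

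NSP1 and NSP2 had the largest rises among the members. NSP1 (Os03g0408600, chromosome 3, 16804298 to 16805869, minus strand) was at 0.593, 0.492, and 0.797 CPM in WT +Pi and at 2.87, 6.49, and 14.1 CPM in WT low-Pi. In Os1400 it was at 0.826, 1.20, and 0.281 CPM at +Pi and at 10.5, 6.46, and 13.3 CPM at low-Pi. Every low-Pi library of either genotype thus exceeded every +Pi library. The log2 fold change in Os1400 was 3.70 (SE 0.52, edgeR FDR 0.000608), and the call held in all 14 alternatives tried (other tools, filters, and normalizations and left-out libraries). In WT it was 3.61 (SE 0.98, FDR 0.0418), and leaving out any WT +Pi library ended that call (edgeR FDR of 0.164 to 0.190). The genotypes did not differ detectably in NSP1 at low-Pi, with a log2 fold change of 0.34 (SE 0.74) and overlapping libraries.

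NSP2 (Os03g0263300) had no count in 5 of the 6 +Pi libraries, and 57 counts (1.29 CPM) in Os1400 +Pi replicate 2. At low-Pi it had 0, 103, and 345 counts in WT (0, 3.89, and 14.6 CPM) and 291, 142, and 295 counts in Os1400 (9.50, 4.13, and 9.61 CPM). WT low-Pi replicate 1, the library with the fewest genes detected, therefore lacked NSP2 while the other two low-Pi WT libraries differed several-fold. In WT the default filter on low counts left NSP2 out of the comparison of the Pi supplies. Among the alternatives that did test it, NSP2 was called as higher at low-Pi in the fit of all 12 libraries (edgeR FDR 0.0340) and without WT low-Pi replicate 1 (FDR 0.0253), but neither without a filter (FDR 0.109) nor without any WT +Pi library (FDR of 0.220 to 0.227). No fold is given, since every WT +Pi library was at 0. In Os1400 the log2 fold change was 4.13 (SE 1.21, edgeR FDR 0.0275), 3.56 to 11.09 when a library was left out. Leaving out Os1400 low-Pi replicate 1 or 3 ended the call (FDR of 0.0922 and 0.0642), as did DESeq2 (FDR 0.183). The gene named RAM1 in the tables (Os11g0507300, chromosome 11) had 7 counts in Os1400 +Pi replicate 1 and 4 counts in each of WT low-Pi replicate 3 and Os1400 low-Pi replicate 1, and none in the other 9 libraries. The default filter left it out, and without a filter it was called in no comparison (edgeR FDR of 0.345 or more). The roster of GRAS genes used for naming gives RAM1 as another member, Os11g0705200, which the tables leave unnamed. The deposited name was used here. Os11g0705200 was at 8.54 ± 2.94 FPKM in WT +Pi (SD, n = 3) and was called in no comparison in the main edgeR tests.

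Among the genes around gibberellin signaling, SLR1 (Os03g0707600) was at 109.5, 96.3, and 99.5 CPM in Os1400 +Pi and at 152, 151, and 160.0 CPM in Os1400 low-Pi, without overlap. It rose by 0.59 on the log2 scale (SE 0.12, edgeR FDR 0.00377). In WT it was at 105, 107, and 85.5 CPM at +Pi and at 119, 93.5, and 171 CPM at low-Pi, and the log2 fold change of 0.34 (SE 0.26, edgeR FDR 0.456) did not pass the test. The libraries of the groups overlapped in WT, and the difference between the genotypes in this response was not called (difference 0.24 on the log2 scale). SLRL1, an SLR1-like gene without the DELLA motif, did not pass the test in either genotype, at 8.41 ± 3.29 CPM in WT +Pi and 13.3 ± 6.81 CPM in WT low-Pi (SD, n = 3).

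**Figure D3:**
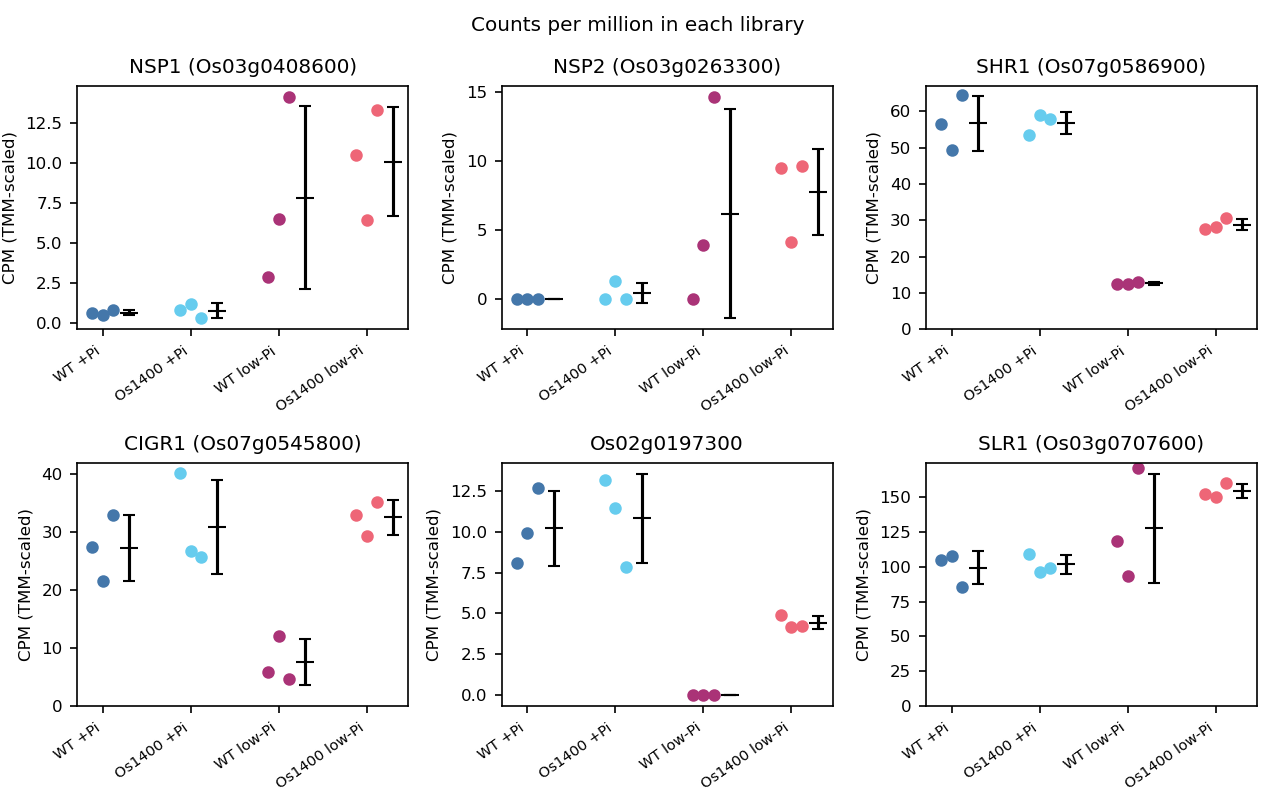
CPM in each of the 12 libraries for 6 GRAS genes, with the mean and SD of 3 libraries as a bar and whiskers beside the points of each group. NSP1 and NSP2 are near 0 at +Pi, SHR1 lies at 12.4 to 13.0 CPM in WT low-Pi and at 27.7 to 30.5 CPM in Os1400 low-Pi, and Os02g0197300 is at 0 in all WT low-Pi libraries.

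SHR1 (Os07g0586900, chromosome 7, 23868809 to 23871087, plus strand) fell in both genotypes, and fell further in WT. It was at 56.4, 49.2, and 64.4 CPM in WT +Pi and at 53.4, 59.0, and 57.9 CPM in Os1400 +Pi. At low-Pi it was at 12.5, 12.4, and 13.0 CPM in WT and at 27.7, 28.1, and 30.5 CPM in Os1400. The 4 groups thus formed 3 separate levels, with the +Pi groups intermingled, Os1400 low-Pi below them, and WT low-Pi lowest. The log2 fold change with low-Pi was -2.19 in WT (SE 0.20, edgeR FDR 0.00342) and -0.99 in Os1400 (SE 0.13, FDR 0.000361). The interaction term over the 12 libraries gave a difference of 1.18 (SE 0.21, edgeR FDR 0.00439). All of these calls held under every alternative tried, with an FDR of at most 0.0400 in WT, 0.00401 in Os1400, and 0.0201 for the difference. SHR1 was also the only member whose call in WT survived the omission of each library in turn. WT low-Pi held 375, 328, and 307 counts of this gene. The part of the lower number of detected genes in WT low-Pi in this difference was not tested.

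SHR2 (Os03g0433200), the second SHORT-ROOT gene, was at 24.5 ± 4.07 CPM in WT +Pi, 17.8 ± 4.68 CPM in WT low-Pi, 23.1 ± 3.09 CPM in Os1400 +Pi, and 24.2 ± 5.32 CPM in Os1400 low-Pi (SD, n = 3), and was called in no comparison. Per length, SHR1 was 1.84 times SHR2 in WT +Pi and 1.95 times in Os1400 +Pi (ratio of mean FPKM). At low-Pi this ratio of FPKM was 0.568 in WT and 0.948 in Os1400. The order of the pair was therefore inverted in WT low-Pi, and both genes were at like levels in Os1400 low-Pi.

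The SCARECROW genes SCR1 (Os11g0124300, chromosome 11) and SCR2 (Os12g0122000, chromosome 12) moved alike. SCR1 was at 18.2, 22.3, and 25.8 CPM in Os1400 +Pi and at 16.8, 14.03, and 13.8 CPM in Os1400 low-Pi. SCR2 was at 17.9, 24.4, and 18.9 CPM in Os1400 +Pi and at 14.3, 13.9, and 13.1 CPM in Os1400 low-Pi. The low-Pi libraries lay below the +Pi libraries in both genes. In Os1400 both fell by 0.58 on the log2 scale (SE 0.19 and 0.18, edgeR FDR 0.0401 and 0.0345), but each kept its call in only 1 of 6 fits with a library left out (FDR of up to 0.166 for SCR1 and 0.167 for SCR2). In WT the log2 fold changes were -0.34 for SCR1 (SE 0.43) and -0.27 for SCR2 (SE 0.38), and neither was called. The difference of the genotype effects between the Pi supplies was not called either (-0.26 and -0.33, SE 0.46 and 0.42). SCR1 and SCR2 are close paralogs, and how the counting treated reads that fit both is not given in the sources used here, so their values are uncertain to that extent.

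CIGR1 and CIGR2 are named in the tables for their induction by chitin and gibberellin. CIGR1 (Os07g0545800) was at 27.4, 21.5, and 32.8 CPM in WT +Pi and at 5.78, 12.04, and 4.71 CPM in WT low-Pi. In Os1400 it was at 40.1, 26.6, and 25.7 CPM at +Pi and at 32.8, 29.3, and 35.2 CPM at low-Pi. The WT low-Pi libraries thus lay below all others, and the Os1400 groups overlapped. CIGR1 fell by 1.89 on the log2 scale in WT (SE 0.47, edgeR FDR 0.0297), and its log2 fold change in Os1400 was 0.07. The difference between the genotypes was 1.93 (SE 0.49, edgeR FDR 0.0232). The call in WT was lost in 4 of 6 fits with a library left out (FDR of up to 0.142), and that of the difference in 5 of 12 (up to 0.0691). CIGR2 (Os07g0583600) was at 46.1, 60.5, and 43.7 CPM in WT +Pi and at 8.58, 32.7, and 33.7 CPM in WT low-Pi, also without overlap. Its log2 fold change of -1.03 (SE 0.51, edgeR FDR 0.231) did not pass the test, and WT low-Pi replicate 1 lay far below the other two.

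HAM genes keep shoot meristem cells undifferentiated in Arabidopsis and petunia. HAM2 (Os02g0663100) was at 10.4, 14.97, and 12.9 CPM in Os1400 +Pi and at 20.9, 19.1, and 20.8 CPM in Os1400 low-Pi. It rose by 0.66 on the log2 scale (SE 0.19, edgeR FDR 0.0233), a call kept in 2 of 6 fits with a library left out (FDR of up to 0.0851). Its neighbor HAM1 was not called in any comparison in the main edgeR tests, nor were HAM3 and MOC1. HAM3 was called under some alternatives, given below. MOC1 had counts in WT low-Pi replicate 3 alone of that group. Without that library edgeR called MOC1 in each comparison with WT low-Pi (FDR of 0.00292 to 0.0228), with WT low-Pi as the lower group. These calls follow from a group left without any MOC1 count, and no conclusion is drawn from them. HAM3 was at 12.3, 12.4, and 16.2 CPM in WT low-Pi and at 6.63, 3.90, and 4.30 CPM in Os1400 low-Pi. Although these groups did not overlap, the log2 fold change of -1.48 (SE 0.52, edgeR FDR 0.120) did not pass the test.

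Among the other members, the abundant gene Os12g0573200 was at 154, 122, and 145 CPM in Os1400 +Pi and at 81.4, 80.6, and 101 CPM in Os1400 low-Pi. It fell by 0.69 on the log2 scale (SE 0.15, edgeR FDR 0.00565). In WT the same gene was at 133, 102, and 127 CPM at +Pi and at 66.9, 62.3, and 99.1 CPM at low-Pi, with a log2 fold change of -0.69 (SE 0.24, edgeR FDR 0.0946). The estimates of both genotypes were equal to 2 decimals, and only that of Os1400 passed the test. SCL1 was at 72.9, 72.9, and 63.9 CPM in Os1400 +Pi and at 43.4, 42.2, and 53.5 CPM in Os1400 low-Pi, a fall of 0.60 (SE 0.14, edgeR FDR 0.0101) that was lost without Os1400 low-Pi replicate 1 (FDR 0.0545).

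Os07g0589200 was at 13.8, 18.9, and 14.2 CPM in Os1400 +Pi and at 31.4, 24.1, and 30.3 CPM in Os1400 low-Pi. It rose by 0.86 on the log2 scale (SE 0.19, edgeR FDR 0.00687), and in WT its libraries overlapped between the Pi supplies. Os10g0551200 rose by 0.64 (SE 0.17, edgeR FDR 0.0155), from 26.98 ± 3.08 to 42.5 ± 8.41 CPM (SD, n = 3), and lost its call without Os1400 +Pi replicate 1 or 2 (FDR of 0.0637 and 0.0630). It overlaps Os10g0551401 on the opposite strand, which was at 1.26 to 1.97 FPKM in Os1400 +Pi and at 2.63 to 5.36 FPKM in Os1400 low-Pi. Os04g0432100 fell from 11.0, 7.60, and 7.08 CPM in Os1400 +Pi to 1.53, 1.92, and 1.79 CPM in Os1400 low-Pi. This was the largest fall called among the GRAS genes in that genotype, at -2.30 on the log2 scale (SE 0.31, edgeR FDR 0.000485). In WT low-Pi the same gene was at 11.6, 0, and 2.80 CPM, so that no change was called there.

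Os02g0197300 (chromosome 2, 5451819 to 5453159, minus strand) was expressed in all 9 libraries outside WT low-Pi. It was at 8.08, 9.91, and 12.7 CPM in WT +Pi, at 13.2, 11.5, and 7.83 CPM in Os1400 +Pi, and at 4.90, 4.16, and 4.23 CPM in Os1400 low-Pi. In WT low-Pi it had 0 counts in each library, so that its level there was at least 90.1-fold lower than in WT +Pi and at least 39.0-fold lower than in Os1400 low-Pi, against a floor of 3 counts per library (0.114 CPM on average in WT low-Pi, with TMM factors). In Os1400, where both groups had counts, it fell by 1.30 on the log2 scale (SE 0.26, edgeR FDR 0.00473). The fall in WT (edgeR FDR 0.0127) lost its call without any WT +Pi library (0.0535 to 0.0643).

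Os10g0369750 (chromosome 10, 11605735 to 11607432, plus strand) was also without counts in WT low-Pi. It had 211, 217, and 195 counts in WT +Pi, 393, 252, and 223 in Os1400 +Pi, 118, 47, and 137 in Os1400 low-Pi, and 0 in each WT low-Pi library. In Os1400 its log2 fold change of -1.15 (SE 0.46, edgeR FDR 0.0921) did not pass the test. Its level in WT low-Pi was at least 45.9-fold lower than in WT +Pi and at least 28.4-fold lower than in Os1400 low-Pi. The FDR of the fall in WT was 0.0151 from edgeR, and 0.0628 to 0.0713 without any WT +Pi library. On the opposite strand it shares 1384 bases with Os10g0369600, which was at 9.87, 2.85, and 14.8 FPKM in WT low-Pi. Os12g0136300 had 28, 59, and 64 counts in WT +Pi and 0 in WT low-Pi, at least an 11.4-fold fall (edgeR FDR 0.0151), and lost its call without WT +Pi replicate 1 or 3 (FDR of 0.0560 and 0.0523). Genes at 0 in WT low-Pi were common, as given above, and the part of this loss of detected genes in the 3 falls was not tested.

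At low-Pi, the genotypes were compared to ask which GRAS genes differed with the Os1400 mutation under phosphate limitation. A total of 4 of 37 members were higher in Os1400 and 0 were lower by edgeR's quasi-likelihood test, while 12.4% of all 25426 genes were higher and 4.47% lower (16.9% in either direction). By DESeq2, 4 members were higher and 1, HAM3, was lower (23.6% of all genes in either direction), and HAM3 was also called as lower with at least 10 counts in every library and in the fit of all 12 libraries. At an unadjusted p of 0.05 or less by edgeR, the same 4 members were higher and 2 were lower. Of all 25426 genes, 4416 were higher and 2492 lower at that p. The median log2 fold change of the members was 0.25, against 0.22 over all genes. The 4 genes were SHR1, CIGR1, Os02g0197300, and Os10g0369750, and the counts of the last pair were 0 in WT low-Pi. SHR1 was higher by 1.17 on the log2 scale (SE 0.25, edgeR FDR 0.0229), and CIGR1 by 2.102 (SE 0.43, FDR 0.0199). The FDR of Os02g0197300 was 0.0188 and that of Os10g0369750 was 0.0222 from edgeR. None of the 4 calls held when any Os1400 low-Pi library was left out (FDR between 0.0689 and 0.133), and the calls over all genes fell to 0% without Os1400 low-Pi replicate 1 or 3 and to 7.98% without replicate 2. Without WT low-Pi replicate 3, 8 of 37 members were called, with 26.7% of all genes.

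Groups did not overlap in 9 members that were higher in Os1400 low-Pi and in 4 that were lower, with 29.0% and 12.1% of all genes. The members that were higher without a call included Os07g0589200, at 31.4, 24.1, and 30.3 CPM against 10.7, 22.2, and 16.3 CPM in WT, and Os11g0705900, at 16.1, 14.3, and 22.4 CPM against 2.91, 5.89, and 12.5 CPM. The members that were lower without a call were HAM3, SCL14, SCL1, and SLRL1. The edgeR test of the difference of the genotype effects between the Pi supplies, over 39 members, called the same 4 genes as higher and none as lower. Of all genes tested, 10.6% were called higher and 2.82% lower (13.4% in either direction). By DESeq2, HAM3 was called as lower for this difference (-1.37 on the log2 scale, SE 0.43, FDR 0.00996). In the edgeR test SHR1 kept its call in each of 12 fits with a library left out. Os02g0197300 and Os10g0369750 did so too, but both are at 0 in WT low-Pi whichever library is left out, and a minimum of 10 counts in every library removes them. In bulk roots, fewer cells that express a gene and less RNA per cell cannot be told apart.

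**Figure D4:**
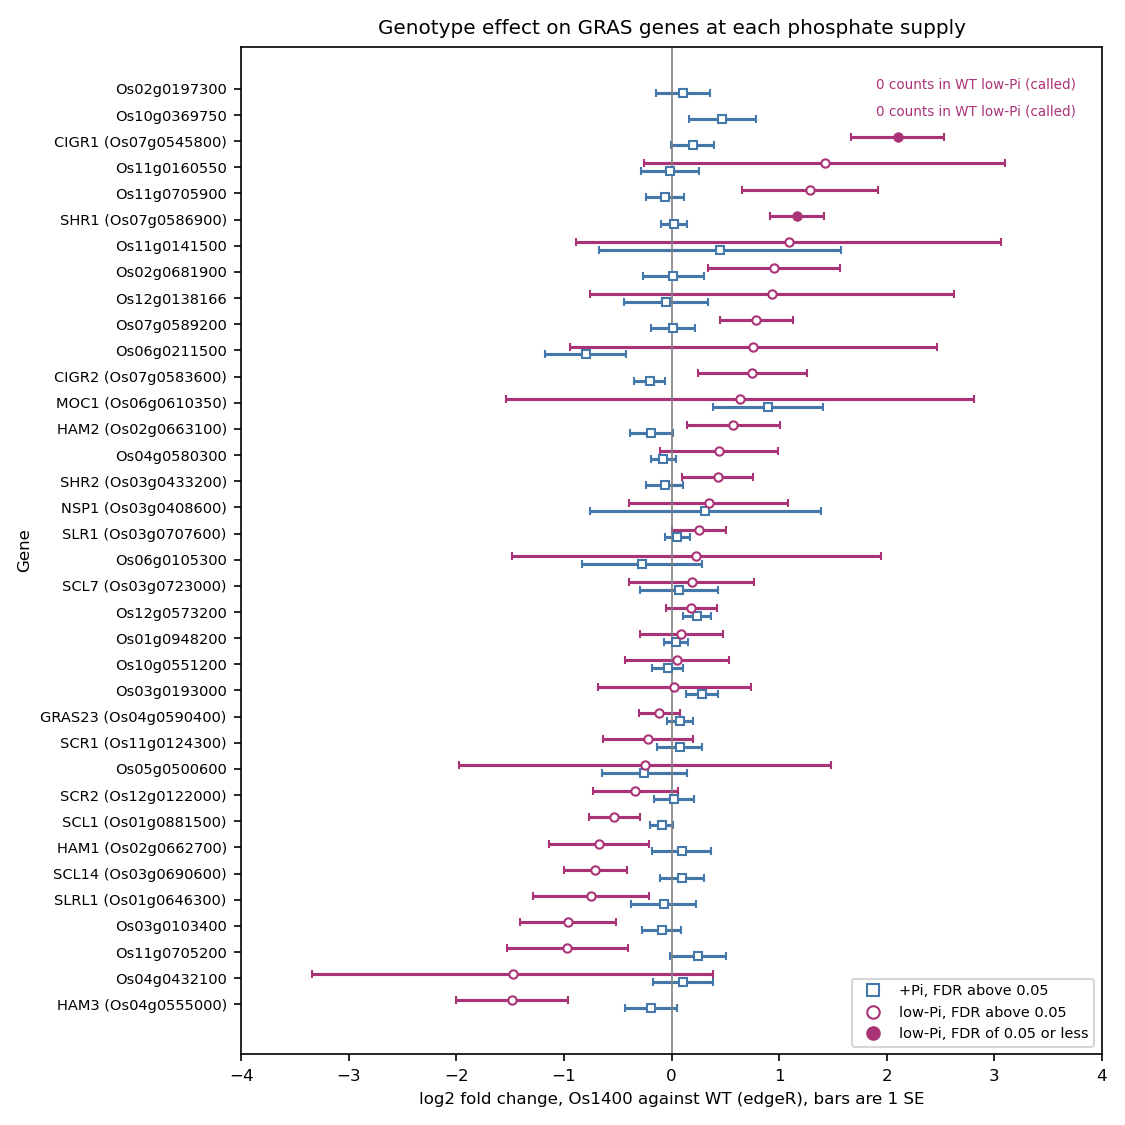
Log2 fold change of Os1400 against WT at +Pi (squares) and low-Pi (circles) for the GRAS genes tested at both supplies (edgeR, bars are 1 SE), with filled circles where the FDR was 0.05 or less. At +Pi the values lie between -0.80 and 0.90 and none was called, whereas CIGR1 (2.102) and SHR1 (1.17) were called at low-Pi, and genes without counts in WT low-Pi are marked in words.

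Genes of the pathways in which GRAS proteins act were counted alongside. Over all genes tested, 15.6% rose and 14.0% fell at low-Pi in Os1400, and 8.46% rose and 15.2% fell in WT. Of the SL biosynthetic genes D17, D10, and Os900, 3 of 3 were called as higher at low-Pi in Os1400. In WT, 1 of 3, Os900, was called as higher. The rises in Os1400 were 2.16, 3.93, and 3.60 on the log2 scale (edgeR FDR 0.000252, 0.00128, and 0.000273). In WT, the log2 fold changes of D17 and D10 were 2.32 and 4.61, without a call (edgeR FDR 0.0751 and 0.150). For both genes, every WT low-Pi library lay above every WT +Pi library. The difference of their genotype effects between the Pi supplies was not called (edgeR FDR 0.933 and 0.876). The median log2 fold change of the 3 genes was 3.60 in Os1400 and 4.61 in WT. Between the genotypes at low-Pi, Os900 was lower in Os1400 (log2 fold change -3.05, SE 0.65, edgeR FDR 0.0223), as were 4.47% of all genes. D17 (-1.06) and D10 (-0.24) were not called there. The gene whose name in the tables is that of D27 but whose domain annotation is another was not counted, and it rose in both genotypes, by 5.11 on the log2 scale in WT (SE 0.96, edgeR FDR 0.0151) and by 1.60 in Os1400 (SE 0.28, FDR 0.00227). Its log2 fold change of Os1400 against WT at low-Pi was -2.92 (SE 0.79, edgeR FDR 0.0539) and was not called. The difference of its genotype effects between the Pi supplies was called as lower (-3.52, SE 0.93, edgeR FDR 0.0279). Of 5 genes of common symbiosis signaling, which act upstream of NSP1, NSP2, and RAM1 in legumes, 3 rose in WT and 2 in Os1400. SYMRK, the receptor-like kinase of this pathway, was at 31.6, 21.5, and 40.4 FPKM in WT low-Pi and at 15.3, 12.01, and 16.8 FPKM in Os1400 low-Pi, without overlap. Its log2 fold change between the genotypes at low-Pi was -1.01 (SE 0.26, edgeR FDR 0.0444). Without Os1400 low-Pi replicate 1 or 3 no gene was called in this comparison, so the calls of SYMRK and Os900 were lost there.

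Of 9 genes of gibberellin perception and metabolism, 8 could be tested. In Os1400, SD1, a gibberellin 20-oxidase of the biosynthetic pathway, rose by 3.34 on the log2 scale at low-Pi (SE 0.44, edgeR FDR 0.000463), whereas the gibberellin-inactivating oxidases GA2ox1 and GA2ox3 fell, as did SPY, a negative regulator of gibberellin signaling. In WT, GA2ox3 and SPY fell. Over all genes tested, 14.0% fell in Os1400 and 15.2% in WT, and 15.6% and 8.46% rose. The receptor gene GID1 was not called in any comparison. GID2, which the tables name so with the domain of another family and which was not counted, fell by 1.41 on the log2 scale in WT (SE 0.13, edgeR FDR 0.00345) and was higher by 0.84 in Os1400 than in WT at low-Pi (SE 0.15, FDR 0.0184). SPY was at 7.27, 5.67, and 6.56 FPKM in WT low-Pi and at 19.3, 19.2, and 21.8 FPKM in Os1400 low-Pi, a log2 fold change of 1.70 (SE 0.17, edgeR FDR 0.0184). The calls of GID2 and SPY between the genotypes were likewise lost without Os1400 low-Pi replicate 1 or 3. At +Pi, 0 counted genes of the 3 lists were called between the genotypes, against 0.958% of all genes tested.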

How the data were processed

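Paired-end RNAseq reads of 12 root libraries were mapped with HISAT2 2.0.5 and counted with featureCounts 1.5.0-p3, per the submitters' processing notes, and the genome build and the use of strand are not given in the sources used here. The authors deposited raw gene-level read counts, 1 table for each Pi supply, without normalization. They also deposited FPKM values, for which the authors scaled fragments by gene length and library, and the gene length in bases. The fold changes, p-values, and adjusted p-values of the authors' own DESeq2 comparison were not used, nor were 28 further columns that repeat counts or FPKM in another form or hold group means.

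Members, gene lists, and tests were chosen with earlier results of these data known. Counts were tested with edgeR 4.0.16 in R 4.3.3 (quasi-likelihood test, TMM, and filterByExpr at its minimums of 10 and 15 counts) over all genes, and p-values were adjusted by Benjamini-Hochberg, with calls at an FDR of 0.05 or less. Genotypes were compared within a Pi supply, Pi supplies within a genotype, and an interaction term over 12 libraries compared the genotype effects. SEs follow from each log2 fold change and its test statistic. Depth was 28271749 to 41078078 counts per library. The libraries carry no molecular identifiers, so limits cover counting error only. Replicates differed by more than sampling noise (chi-square per gene of 18.2 to 312), and all 12 were kept. Fold limits were set against 3 counts.

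Genes were named by a rule that took NSP1, NSP2, called members, a roster of rice GRAS genes with described roles, and the 5 most abundant members. Others named with values were chosen after their values were seen. DLT and the second gene named MONOCULM 1 carry no GRAS domain in the tables and are not members. D27 and GID2 were left out of the pathway counts because the domain in the tables goes against their names, which do match, and KAO because the tables give its identifier another name. Alternatives were DESeq2 1.42.0, RLE and upper-quartile normalization, other filters on low counts, missing rows as 0 counts, a fit of all 12 libraries together, the replicate number as a block, and each library left out in turn. The tests were first tested on simulated data.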

Additional observations from a re-analysis of the deposited data

Results flagged for a closer look

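For 4 of 39 GRAS genes tested, the effect of the genotype differed between the Pi supplies. The test was the interaction term over 12 libraries (quasi-likelihood test of edgeR, adjusted by Benjamini-Hochberg), which called 13.4% of all genes. The difference was 1.18 for SHR1 (Os07g0586900) on the log2 scale, with SE 0.21 and an adjusted p of 0.00439. For CIGR1 (Os07g0545800) it was 1.93, with SE 0.49 and an adjusted p of 0.0232. The fitted difference was 10.19 for Os02g0197300 (adjusted p = 0.000330 from edgeR) and 9.37 for Os10g0369750 (adjusted p = 0.00173 from edgeR). Both of these genes had no count in any WT low-Pi library, so that their fitted values depend on the prior count and are no bound. In all 4 genes the libraries of both genotypes overlapped at +Pi, and every Os1400 library was above every WT library at low-Pi. Of all genes tested at low-Pi, 29.0% were separated in that direction. The 4 genes were picked by the interaction test on the same libraries, so their separation is not separate evidence. Fewer genes were detected in WT low-Pi (17711 to 22077 genes against 27191 to 30375 elsewhere), and the part of this in these differences was not tested.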

How the results depend on the processing

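At +Pi, 0 members were called between the genotypes under each of 13 alternatives. At low-Pi, the 4 calls (16.9% of all genes called) became 1 without a filter on low counts (3.99%), 0 with the replicate block (4.11%), and 0 to 8 with a library left out (0% to 26.7%). For low-Pi against +Pi in WT, the 6 calls (23.7%) became 3 with at least 10 counts in every library (32.4%), 10 in a fit of all 12 libraries (34.1%), 1 with the replicate block (7.72%), and 1 to 11 with a library left out (7.06% to 33.8%). For low-Pi against +Pi in Os1400, the 13 calls (29.6%) became 2 in the fit of all 12 libraries (8.92%), in which WT low-Pi enters the estimate of spread, and 8 to 11 with a library left out (20.4% to 28.2%). For the difference of the genotype effects, the 4 calls (13.4%) became 2 with at least 10 counts in every library (14.7%), which removes genes at 0 in WT low-Pi, and 3 to 7 with a library left out (8.92% to 22.5%). All other alternatives left each of these counts within 1.5 times its main value, and no called member changed direction.

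Whether the replicate numbers pair the samples is not known. Deviations of same-numbered libraries correlated at -0.03 to 0.16. The highest values, 0.131 and 0.160, were those of replicates 2 and 3 between the genotypes at low-Pi. Libraries were closest to their own number in 3 of 3 cases between the Pi supplies in WT, at correlations of at most 0.0241. Between the genotypes this held in 2 of 3 cases at low-Pi and 0 of 3 at +Pi, and between the Pi supplies in Os1400 in 1 of 3. With the replicate block, 11 members were called between the Pi supplies in Os1400 and 4 for the difference of the genotype effects. Without the block these numbers were 13 and 4, with 29.6% and 13.4% of all genes called. Values near 0 changed sign for NSP1 and NSP2. The genotype effect on NSP1 ranged from -0.156 to 0.712 at +Pi and from -0.0467 to 1.107 at low-Pi with a library left out, and fell below 0 when Os1400 +Pi replicate 2 or WT low-Pi replicate 1 was omitted, respectively. Its difference between the Pi supplies, 0.07, became -0.0277 with at least 10 counts in every library, -0.0443 with DESeq2, -0.0418 with RLE normalization, and -0.0834 with upper-quartile normalization, and ranged from -0.328 to 0.810 with a library left out. The genotype effect on NSP2 at low-Pi, 0.30, ranged from -0.278 to 1.993. Its fitted difference between the Pi supplies ranged from -7.21 to 0.33 and is no fold, since WT +Pi had no NSP2 counts. Depth limits the genes under 1 FPKM, and the missing genes of the WT low-Pi libraries limit each comparison with that group. The cause of the lost calls was not tested.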
